A study of Mus musculus with 6 samples.

Results

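The small heat shock proteins and the cytosolic HSP70 proteins were followed in the uterus of pregnant mice through 10 genes: Hspb1, Hspb2, Hspb6, Hspb7, Hspb8 and Cryab of the former family, and Hspa1a, Hspa1b, Hspa2 and Hspa8 of the latter. Every probe that the deposited comparison table names by one of these symbols was taken, 18 probes of 45281 on the array (10 of 30789 gene symbols), and 17 of them, covering all 10 genes, were detected and tested. The RNA came from mouse uterus at 15.5 days (3 arrays) and 18.5 days (3 arrays) post coitum, shortly before birth in the latter case, and was read on 6 one-colour Illumina bead arrays of 1 chip. Strain, age and any treatment are not given in the sources used here, and all animals were pregnant. The tissue is labelled as uterus whereas the study's design names the myometrium, so the layers in each sample, and the number of animals behind each array, are not settled. Each day filled its own stretch of the chip, so day and chip position cannot be told apart.

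Small heat shock proteins are chaperones without ATPase activity that form oligomers through a shared alpha-crystallin domain and hold unfolding proteins, which they pass to the HSP70 machine for ATP-driven refolding. Heat shock factor 1 induces many of these genes upon stress by binding heat shock elements, inverted repeats of nGAAn, in their promoters. In muscle, where several members are abundant without stress, HSPB1 and alpha-B crystallin (the product of Cryab) associate with actin and desmin filaments, and HSPB6, also called HSP20, is phosphorylated during cyclic nucleotide-dependent relaxation of smooth muscle. In the myometrium of several species HSPB1 and its phosphorylation have been studied in connection with late pregnancy.

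Of the 6 small heat shock protein genes, 4 were lower at day 18.5, while Hspb2 and Hspb8 did not pass the test. Hspb1 fell 2.03-fold, Hspb7 1.90-fold, Cryab 1.87-fold and Hspb6 1.51-fold, and the stress-inducible Hspa1a fell 1.53-fold at its brightest probe (each n = 3 arrays per day). The changes were tested with limma across all 20701 kept probes, two-sided, with Benjamini-Hochberg adjustment and a threshold of 0.05 on the adjusted p. By that test 6 of the 17 member probes, from 5 genes, were lower, against 13.2% of all kept probes. None of the 17 was higher, against 11.6%. At an unadjusted p under 0.05, 1 member probe was higher and 7 were lower. The share of all kept probes at that unadjusted threshold was not computed, so such counts, here and for the lists below, cannot be weighed against a background. The median log2 change was -0.27 over the 17 member probes and 0.01 over all kept probes; it was -0.59 over the 7 small heat shock protein probes, 4 of them lower by the test, and -0.19 over the 10 HSP70 probes, 2 of them lower. The values of the days did not overlap for 8 member probes that lay lower and for 1 that lay higher, against 20.8% and 20.9% of all kept probes. The kept member probes rested on 19 to 66 beads per array.

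**Figure D1:**
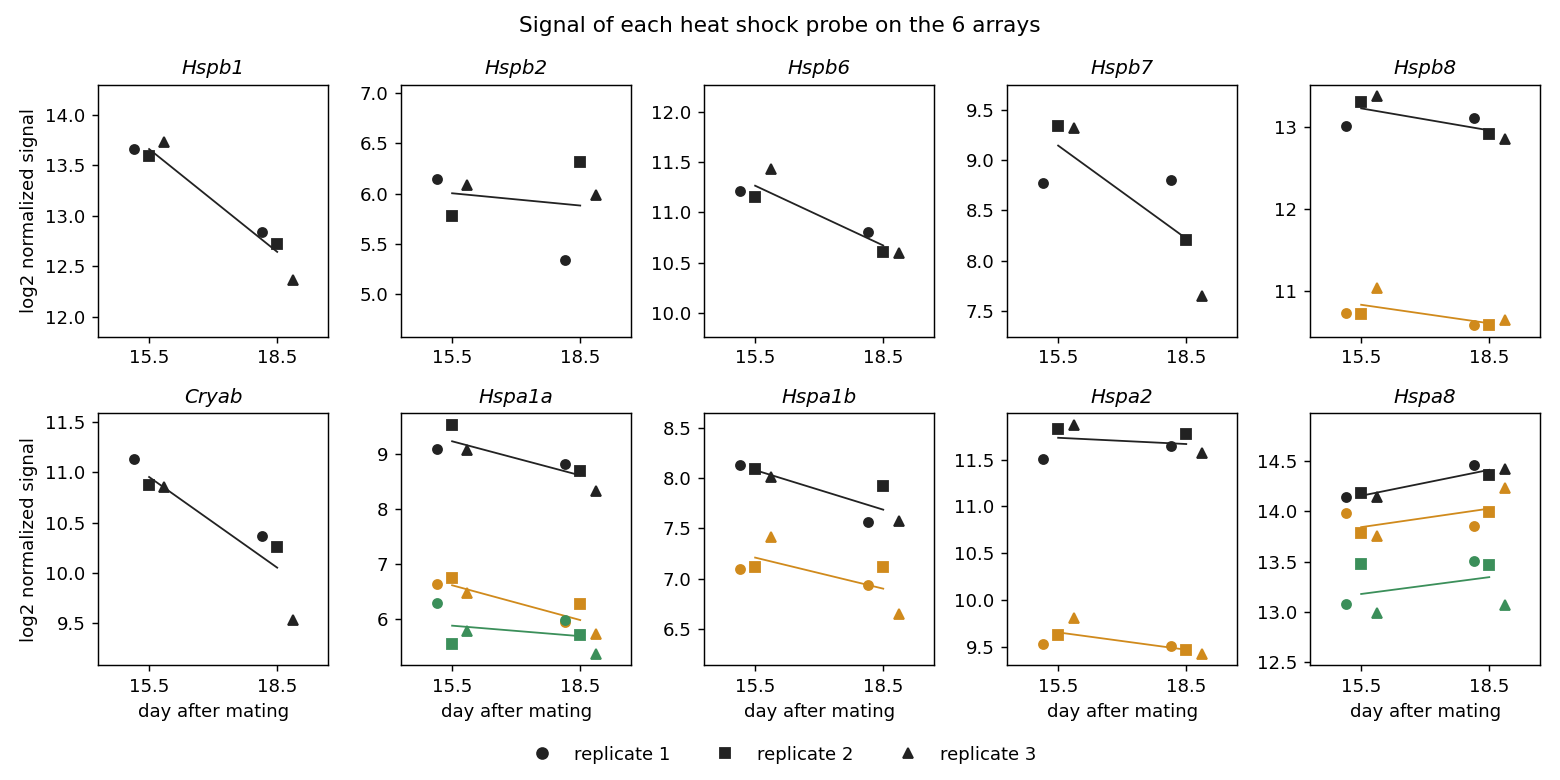
Normalized log2 signal (vertical axis, scaled separately for each gene) of the 17 detected probes of the 10 genes at day 15.5 and day 18.5 post coitum (horizontal axis). Each point is 1 array, with its shape giving the replicate, each colour is a probe of that gene (black the brightest), and lines join the means of 3 arrays; the day 18.5 points of Hspb1, Hspb6, Cryab and the brightest Hspa1a probe all lie under those of day 15.5.

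Hspb1 encodes the mouse HSP25, an actin-associated chaperone and the counterpart of human HSP27. The gene is on chromosome 5, at chr5:135887919-135889563 (RefSeq, GRCm38.p6). Its normalized log2 signal was 13.67, 13.59 and 13.73 on replicates 1, 2 and 3 of day 15.5 and 12.84, 12.72 and 12.37 on those of day 18.5. The days were thus separated by more than their own spread, with replicate 3 of day 18.5 lowest. The mean fell from 13.66 ± 0.07 (SD, n = 3) to 12.64 ± 0.25, a log2 change of -1.02 ± 0.15 (SE; limma adjusted p = 0.000940), which was past the threshold under all 17 alternatives in processing or choice of arrays (adjusted p 1.89e-05 to 0.00520). The authors' deposited table puts the later day at 0.492 of the earlier one for this probe, with a false discovery rate of 0.0016. A further Hspb1 probe was detected on no array and was not tested.

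The Hspb1 promoter is shown because this gene had the largest fall of the 10 genes with all arrays in the fit (Hspb7 fell more without replicate 1 of either day, by 1.11 against 1.02 and by 1.21 against 1.12 on the log2 scale) and its start is preceded by 2 heat shock element pairs. The 250 bases before the start (RefSeq, GRCm38.p6, plus strand, chr5:135887669-135887918) read 5′ to 3′ as follows, with the pairs, of the form GAANNTTC, in capitals:
Hspb1: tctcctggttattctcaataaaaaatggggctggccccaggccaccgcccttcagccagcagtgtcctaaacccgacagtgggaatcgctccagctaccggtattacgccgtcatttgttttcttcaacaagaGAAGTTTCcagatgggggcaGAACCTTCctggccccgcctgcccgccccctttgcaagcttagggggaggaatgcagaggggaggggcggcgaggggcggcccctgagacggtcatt
The pairs begin 117 and 97 bases before the start. Both strands of 32851 RefSeq promoters were searched over the same 250 bases for GAANNTTC or TTCNNGAA, each its own reverse complement in form, and 12.8% held at least 1 (6.69% for GAANNTTC and 7.17% for TTCNNGAA). The promoter table held 7 of the 10 genes, all but Hspb2, Cryab and Hspa8, and at least 1 pair was found for 4 of the 7, namely Hspb1, Hspb6, Hspa1a and Hspa1b. These are counts of genes, whereas the 12.8% counts single promoters. Hspb6 had 2 promoters, of which 1 held a pair. The promoters of Hspa1a and Hspa1b are nearly the same, so their matches are not independent. None of the 7 held a run of 3 adjoining units (GAANNTTC followed by NNGAA, or TTCNNGAA followed by NNTTC), found in 0.466% of promoters, or the CArG box of serum response factor, found in 1.47%. A match describes letters in this window and is not evidence that a factor binds there.

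Cryab, whose product alpha-B crystallin chaperones desmin filaments and is also a major lens protein, had log2 signals of 11.13, 10.88 and 10.85 at day 15.5. They were 10.37, 10.26 and 9.53 at day 18.5, all lower, with replicate 3 standing well under the other arrays of that day. The change was -0.90 ± 0.21 (log2, SE; limma adjusted p = 0.0128). It missed the threshold when no detection filter was used (adjusted p = 0.0507; 0.00338 to 0.0507 over the alternatives) and was -0.64 without replicate 3 of day 18.5. The RefSeq span of Cryab on chromosome 9 (chr9:50745951-50756636) contains that of Hspb2 (chr9:50751072-50752354), which encodes a chaperone that binds the myotonic dystrophy protein kinase. Hspb2 was dim, at 6.14, 5.78 and 6.09 and then 5.34, 6.32 and 5.99, and undetected on replicate 1 of day 18.5. Its days overlapped and its change of -0.12 had a 95% interval of -0.64 to 0.39 (adjusted p = 0.743), so that neither no change nor a fall near that of Hspb6 is outside it. Without replicate 1 of day 18.5 its change was 0.15.

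Hspb6 gave log2 signals of 11.22, 11.15 and 11.43 at day 15.5 and 10.81, 10.61 and 10.60 at day 18.5. The days did not overlap, and the fall of 0.59 ± 0.13 on the log2 scale (SE; limma adjusted p = 0.00925) passed under all 17 alternatives (adjusted p 0.00140 to 0.0406). Of 2 RefSeq starts of Hspb6, the later one follows a heat shock element pair that begins 120 bases before it, shown with 10 bases on each side (plus strand, chr7:30553171-30553198):
Hspb6: agtaattattGAAGTTTCtaaataagga
Its 8 capital letters, GAAGTTTC, are those of the first pair of Hspb1 printed above.

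Hspb7, the small heat shock protein of heart and skeletal muscle, gave 8.77, 9.34 and 9.32 at day 15.5 and 8.80, 8.21 and 7.65 at day 18.5. Replicate 1 of the later day lay above replicate 1 of the earlier one, so the days overlapped, and the change of -0.92 ± 0.27 (log2, SE) had a limma adjusted p of 0.0343. This call was the least stable among the small heat shock proteins. It ended without replicate 2 or 3 of day 15.5 (adjusted p = 0.116 and 0.106) and without replicate 2 or 3 of day 18.5 (0.0744 and 0.0940). The call also ended with the authors' deposited intensities (0.0603), with no detection filter (0.118) or with a block for the replicate number (0.0537). The authors' deposited table gives a ratio of 0.511 with a false discovery rate of 0.0358.

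Hspb8, which works with the cochaperone BAG3 in chaperone-assisted autophagy, did not pass. Its brighter probe gave 13.01, 13.30 and 13.37 at day 15.5 and 13.11, 12.91 and 12.85 at day 18.5, and the days overlapped. The change was -0.27 with a 95% interval of -0.59 to 0.05 (limma adjusted p = 0.205), and that of the other probe -0.23 with an interval of -0.51 to 0.06 (adjusted p = 0.241). Bag3 changed by a like -0.27 (adjusted p = 0.197). The difference between the changes of Hspb1 and Hspb8 was itself examined, because a pass and a miss do not show that the genes differ. This pair was chosen after its values were seen and no exact p under 0.10 was possible, so the comparison cannot decide whether they differ. On each array the Hspb1 signal less that of Hspb8 was 0.29 to 0.66 at day 15.5 and -0.48 to -0.19 at day 18.5, without overlap, a difference in change of -0.75 (exact permutation p = 0.10, two-sided, the smallest that 3 arrays against 3 allow; 0.133 adjusted over 4 pairs of genes).

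**Figure D2:**
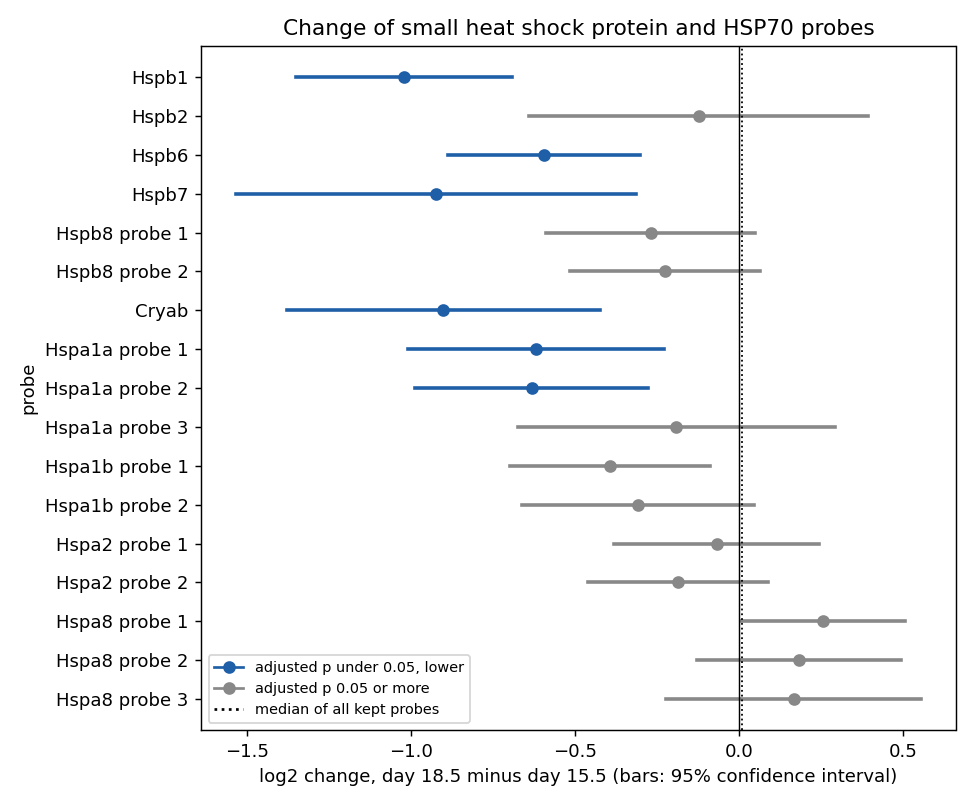
Log2 change from day 15.5 to day 18.5 (horizontal axis) of each of the 17 detected probes, with its 95% confidence interval from limma (3 arrays per day). Probes of a gene are numbered from the brightest; the 6 blue probes passed the adjusted threshold, all below 0, and the 3 Hspa8 probes are the only ones with a positive change.

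Hspa1a and Hspa1b are the stress-inducible HSP70 genes, neighbours on chromosome 17 (chr17:34969359-34972156 and chr17:34956429-34959238) with near-identical products, so a probe named for one may also read the other. The brightest Hspa1a probe gave 9.09, 9.53 and 9.07 at day 15.5 and 8.81, 8.69 and 8.34 at day 18.5. The second gave 6.64, 6.75 and 6.47 and then 5.95, 6.27 and 5.74. Neither overlapped between days, and the changes were -0.62 ± 0.17 and -0.63 ± 0.16 (log2, SE; limma adjusted p = 0.0285 and 0.0172). The first call ended without replicate 2 of day 15.5 (adjusted p = 0.0888), without replicate 2 or 3 of day 18.5 (0.0555 and 0.0885) or with no detection filter (0.0724). The second ended without replicate 2 of day 15.5 (0.0622) or replicate 3 of day 18.5 (0.0551), and its change was -0.36 with no background correction (adjusted p = 0.0258). The dimmest Hspa1a probe changed by -0.19 ± 0.21 (adjusted p = 0.566), and by 0.02 without replicate 1 of day 15.5. The authors' deposited table gives the first 2 probes false discovery rates of 0.0542 and 0.0237.

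Hspa1b lay lower on average without passing. Its brighter probe gave 8.13, 8.09 and 8.01 at day 15.5 and 7.56, 7.92 and 7.58 at day 18.5, with no overlap, a change of -0.39 ± 0.14 (log2, SE; limma adjusted p = 0.0635) and a 95% interval of -0.70 to -0.09. Under 5 of the 17 alternatives it passed as lower (adjusted p 0.0183 to 0.187 over all of them). The dimmer probe changed by -0.31 (adjusted p = 0.190; 0.0486, and so past the threshold, with median scaling). The promoters of the pair are shown because they are nearly the same and hold the same heat shock element pair, in capitals, 104 bases before the start (RefSeq, GRCm38.p6, minus strand, chr17:34972157-34972406 and chr17:34959239-34959488):
Hspa1a: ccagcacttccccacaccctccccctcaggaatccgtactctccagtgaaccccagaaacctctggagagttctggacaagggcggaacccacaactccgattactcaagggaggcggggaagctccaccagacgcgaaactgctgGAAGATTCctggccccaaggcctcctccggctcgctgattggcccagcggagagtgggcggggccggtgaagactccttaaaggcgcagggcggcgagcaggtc
Hspa1b: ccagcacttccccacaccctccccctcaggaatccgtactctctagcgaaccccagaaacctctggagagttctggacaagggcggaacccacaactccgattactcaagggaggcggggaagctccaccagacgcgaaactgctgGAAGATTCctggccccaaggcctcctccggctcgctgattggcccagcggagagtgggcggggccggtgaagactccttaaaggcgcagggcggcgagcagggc
Set side by side without gaps, 247 of the 250 bases were identical.

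Hspa8 encodes HSC70, the constitutive cytosolic HSP70 of most cells, on chromosome 9 (chr9:40801276-40805202). Its brightest probe gave 14.14, 14.18 and 14.14 at day 15.5 and 14.46, 14.36 and 14.42 at day 18.5, all higher. The change of 0.26 had a 95% interval of 0.01 to 0.51 and a limma adjusted p of 0.126 (0.0284 to 0.318 over the alternatives, past the threshold with a trended and robust variance). The other probes, at mean log2 signals of 13.84 and 13.18 at day 15.5, changed by 0.18 (adjusted p = 0.377) and 0.17 (adjusted p = 0.528), and their days overlapped. All 3 probes had positive changes under each alternative. The brightest lay on average at percentile 99.7 of the probes on an array. On each array the Hspa1a signal less that of Hspa8 was -5.07 to -4.65 at day 15.5 and -6.08 to -5.65 at day 18.5, a difference in change of -0.88 without overlap (exact permutation p = 0.10, the smallest possible; 0.133 adjusted over the 4 pairs). For Hspb1 against Hspa8 the difference in change was -1.28 (exact p = 0.10, and 0.133 adjusted), and for Cryab against Hspb2 it was -0.78 with overlapping days (exact p = 0.30). These pairs too were chosen after their values were seen, so the comparisons cannot decide whether the genes differ.

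Hspa2, known as the HSP70 of male germ cells but also found in other tissues, was bright in the uterus. Its probes gave mean log2 signals of 11.73 ± 0.20 (SD, n = 3) and 9.65 ± 0.14 at day 15.5 and 11.67 ± 0.10 and 9.47 ± 0.04 at day 18.5. Neither passed: the changes were -0.07 (95% interval -0.38 to 0.25; limma adjusted p = 0.770) and -0.19 (interval -0.46 to 0.09; adjusted p = 0.312).

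Replicate 3 of day 18.5 held the lowest value of 10 of the 17 member probes, against 20.5% of all kept probes that were lowest there. It also had the lowest median unnormalized signal, 75.8 against 84.8 to 105 on the other arrays. Without it, 3 member probes were lower by the test, and 3 also without replicate 2 of day 15.5.

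**Figure D3:**
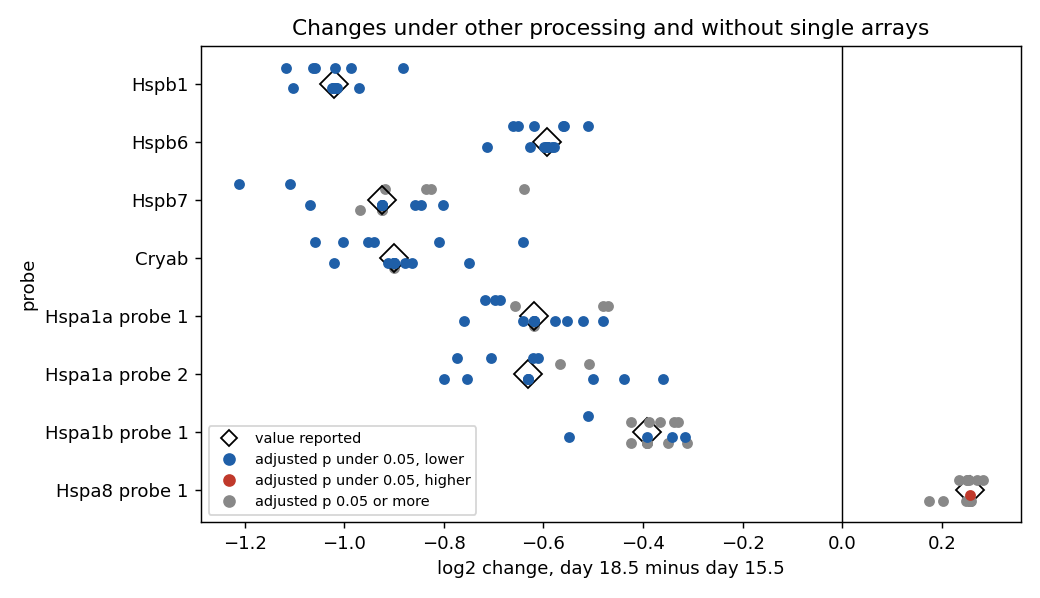
Log2 change (horizontal axis) of the 6 probes called lower and of the brightest Hspa1b and Hspa8 probes under 17 alternatives (14 for the dimmer Hspa1a probe, which some settings leave out). Diamonds mark the reported values, points above each diamond leave out 1 array, points below change the processing, and colour gives the side of the adjusted threshold; Hspb1 and Hspb6 stay blue throughout, whereas Hspb7 and Hspa1a include grey points.

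Few genes of the wider heat shock machinery passed the test. Of 70 further genes on 7 lists of chaperones, cochaperones and heat shock factors, 53 were measured, each by its brightest kept probe. By limma 3 were higher and 5 lower (1 of these, Cryaa, was kept through the arrays of day 15.5 alone), against 12.2% and 13.0% of all symbols, with a median log2 change of -0.06 against 0.02 over all symbols. In neither direction was the share of these genes above that background.

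Among other small heat shock proteins, Cryaa, the alpha-A crystallin gene of the lens, was detected on all 3 arrays of day 15.5 and on none of day 18.5. It met the detection filter only through the day on which it was high, so its p-value describes a probe that had to differ and supports nothing further. It was at least 2.05-fold lower (limma adjusted p = 0.000226), a bound that sets the mean of day 15.5 against, on each later array, the lowest signal of a detected probe or its own signal, whichever was higher. Its signals were 6.18, 6.42 and 6.80 at day 15.5. Hspb3, Hspb9 and Odf1 were detected on no array, and Hspbap1, whose rat product binds HSPB1, changed by -0.27 (adjusted p = 0.288).

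Of 7 other HSP70 and HSP110 genes measured, 2 rose and 1 fell. Hsph1 (listed on the array as Hsp105) and Hspa4, which encode HSP110-type nucleotide exchange factors of HSP70, rose by 0.77 ± 0.14 (log2, SE; limma adjusted p = 0.00344) and 0.67 ± 0.17 (adjusted p = 0.0205), while Hyou1, their relative in the endoplasmic reticulum, fell by 0.74 ± 0.19 (adjusted p = 0.0187). Hspa9, the mitochondrial HSP70 and the brightest of the list, changed by 0.03 (adjusted p = 0.882). Hsph1 gave 11.06, 10.70 and 10.84 at day 15.5 and 11.59, 11.53 and 11.81 at day 18.5, so that all later arrays lay above all earlier ones, opposite to Hspa1a.

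Of 9 HSP40 genes measured, whose products deliver clients to HSP70, Dnajb6 rose and Dnajb11, an endoplasmic reticulum member, fell. Dnajb6 went from 10.25 ± 0.01 (SD, n = 3) to 10.99 ± 0.17 (log2 change 0.74; limma adjusted p = 0.00253); another probe passed with 0.71 and the remaining one did not (0.40, adjusted p = 0.276). Dnajb11 fell by 0.43 (adjusted p = 0.0296). Dnajb1, the main heat-inducible HSP40, was the brightest of the list and changed by less than 0.01 (adjusted p = 0.999), with a mean log2 signal of 11.40 on both days.

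None of the 10 BAG and other cochaperone genes passed by limma in either direction, with 0 higher and 1 lower at an unadjusted p under 0.05. Bag1, the brightest, changed by -0.12 (adjusted p = 0.533). Of 11 genes of HSP90 and its cochaperones, Fkbp5, an immunophilin that glucocorticoid and progestin signalling induces, fell by 0.87 ± 0.14 (log2, SE; limma adjusted p = 0.00182). The HSP90 genes did not pass at their brightest probes: Hsp90aa1 changed by -0.07 (adjusted p = 0.740), Hsp90ab1 by 0.06 (0.802) and Hsp90b1, the brightest, by -0.41 (0.116). Of 11 chaperonin genes and relatives, Serpinh1, the collagen chaperone HSP47, fell by 0.63 ± 0.12 (adjusted p = 0.00474) and was the brightest of the list. Hspd1, the mitochondrial HSP60, changed by -0.18 at its brighter probe (adjusted p = 0.339), whereas its dimmer one fell by 0.90 (adjusted p = 0.00166), so the probes disagree. Among the 3 regulators measured, Hsf1, the main heat shock factor, changed by -0.17 (adjusted p = 0.342), Hsf2 by 0.13 (0.587) and Hsbp1, the brightest, by 0.02 (0.933); none of these 3 had an unadjusted p under 0.05.

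**Figure D4:**
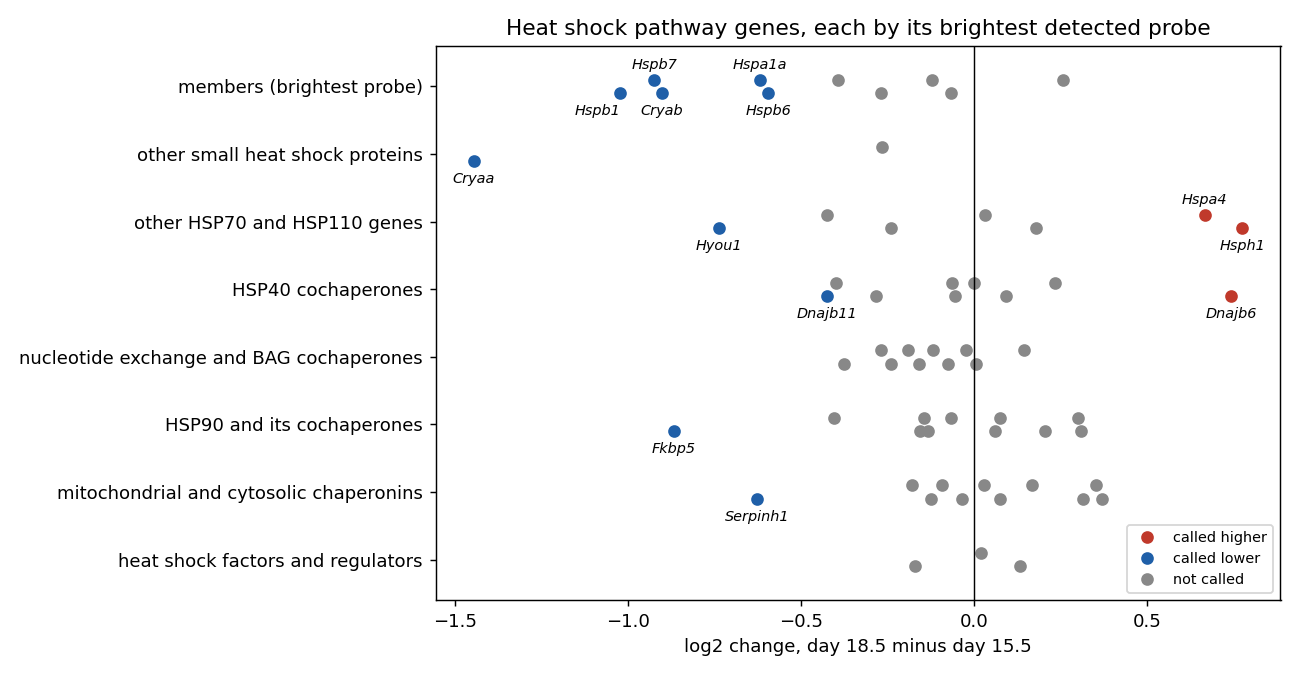
Log2 change from day 15.5 to day 18.5 (horizontal axis) of the 10 genes of the report and of 53 further measured genes of the heat shock machinery, by list (vertical axis); each point is a gene at its brightest kept probe, Cryaa at a fitted value because it was not detected at day 18.5. Coloured and named points passed the adjusted threshold: 5 of the 10 genes lie lower, and 5 lower and 3 higher among the 53. Of all symbols 13.0% were lower and 12.2% higher. The 10 genes and the lists were chosen with earlier results of these data known.

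The tissue's own markers were present and some moved as well. Of 10 smooth muscle markers 9 were measured, and their summed normalized signal, each gene by its brightest probe, was 107006 to 120259 at day 15.5 and 110408 to 118735 at day 18.5, with overlap. Within that list Smtn, Synpo2 and Myocd, the coactivator of smooth muscle genes, were lower by limma (log2 changes -0.52, -0.50 and -2.38), and 0 were higher, also at an unadjusted p under 0.05. For this list and the marker lists below, the shares of all symbols were 13.0% lower and 12.2% higher. The probes of Acta2, the smooth muscle actin gene, disagree: the brightest, which enters the sum, changed by 0.07 (adjusted p = 0.728), whereas 3 of the other 4 were lower (-0.71, -0.47 and -0.42). The probe at -0.42 was nearly as bright, with means of 14.96 at day 15.5 and 14.54 at day 18.5, against 14.72 and 14.79. The overlap of the sums therefore rests on which of these probes stands for Acta2. Desmin, Des, the filament partner of alpha-B crystallin, changed by 0.16 (adjusted p = 0.432). In a tissue sample, fewer cells of a type and less RNA per cell cannot be told apart.

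Striated muscle markers, which matter here because Hspb2, Hspb7 and Cryab are abundant in heart and skeletal muscle, fell in 3 of 6 measured cases of 12 listed. Their summed signal was 9722 to 11993 at day 15.5 and 1530 to 2593 at day 18.5. Acta1, the brightest of the list at mean log2 signals of 13.20 and then 10.59, weighs most in that sum. The sum therefore does not describe the list as a whole. Ckm, Mylpf and Actn3 did not pass at their brightest probes (log2 changes -0.90, 0.12 and 0.02). Acta1 gave 13.22, 13.01 and 13.35 and then 10.93, 10.64 and 10.20, Actc1 fell by 2.10 and Tnnt3 by 1.02 on the log2 scale. The defining myosin heavy chain genes Myh1, Myh2, Myh4 and Myh6, as well as Myl1 and Pygm, were detected on no array. Acta1, Actc1, Ckm and Tnnt3, like Hspb7 and Cryab, were lowest on replicate 3 of day 18.5, whereas Mylpf and Actn3 were not. That array held the lowest value of 10 of the 17 member probes, Hspb7 and Cryab among them, and of 20.5% of all kept probes. The part of the source of the striated muscle markers in the falls of Hspb7 and Cryab was not tested.

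Epithelium markers rose in 7 of 7 measured cases of 8 listed, with summed signals of 11358 to 17394 and then 33659 to 38555; Epcam was detected on no array. Of 8 trophoblast markers, Prl2a1 and Prl7b1 were detected on all 3 arrays of day 18.5 and on none of day 15.5. They thus met the detection filter only through the day on which they were high. A further 4, Prl3d1, Tpbpa, Psg17 and Gcm1, were detected on no array. The sums were 88.9 to 192 at day 15.5 and 2936 to 10064 at day 18.5. Prl2a1 and Prl7b1 enter the former undetected and make up most of the latter, so the sums add nothing beyond these genes. Of 7 leukocyte markers measured of 8, S100a9 rose and Ptprc and Prf1 fell (log2 changes 0.67, -0.87 and -3.20). The other Prf1 probe changed by -4.87, and Gzmb was detected on no array. The sums overlapped, at 27107 to 32128 and then 25459 to 28750. Lyz2, the brightest of the list at mean log2 signals of 14.47 and then 14.60, weighs most in these sums. They therefore do not describe the list as a whole. The part of these shifts in the falls of the heat shock genes was not tested. Immediate early genes, which handling of tissue can induce together with Hspa1a, had no member higher by limma, against 12.2% of all symbols (2 at an unadjusted p under 0.05). Lower were 3 of 10, against 13.0% of all symbols: Egr2 (-1.12), Zfp36 (-0.56) and Ier3 (-0.44). The summed signal of the list was 20797 to 23061 at day 15.5 and 17727 to 20685 at day 18.5. Ier2 and Nr4a1 were detected on no array. Ier3, the brightest of the list at mean log2 signals of 13.22 and then 12.78, weighs most in that sum, which therefore does not describe the list as a whole. Fos gave 9.28, 11.06 and 10.11 at day 15.5 and 11.24, 11.17 and 10.94 at day 18.5; its part in the change of Hspa1a was not tested.

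The genes whose pattern over the 6 arrays was most like that of Hspb1, by Pearson correlation of log2 signals, were Rasl11b (r = 1.00, rounded), Cercam (0.999), Mmp17 (0.998), Kcnh2 (0.998) and Dag1 (0.997), with log2 changes of -1.23 to -0.85. With 6 points of 2 days such values describe any gene that fell between the days with a like spread, and 1898 of the 20701 kept probes had an r over 0.9.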

How the data were processed

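Per the file headers, the deposited unnormalized table gives each probe's average bead intensity on every array together with its detection p-value. The authors' normalized intensities, per the file headers on a linear scale, hold the same values on every array once sorted, as quantile normalization gives; how background was removed is not stated. Per the file headers, the authors also deposited the bead number and the bead standard error of the signal, of which the bead number alone is used here. The deposited comparison table adds a ratio (fold) of the days and a false discovery rate (q-value), sorted apart from the probes; they were matched to probes where the symbol was equal and the ratio lay within a relative 1e-05 of that of the geometric means, which placed 18 of 18 member probes.

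From the unnormalized intensities, log2 signals were computed with neqc (limma 3.58.1, R 4.3.3; offset 16, background parameters estimated through the detection p-values). A probe was kept if detected (p under 0.05) on 3 or more of the 6 arrays, which held for 20701 of 45281, and each probe was tested with lmFit and eBayes, without a block, p-values being adjusted over all kept probes. Between 43.6% and 46.5% of probes were detected per array; 3 arrays per day limit the precision, and the spread behind the p-values is that among these arrays and may be technical. Alternatives were no background correction, median scaling, an offset of 50, the intensities as the authors deposited them (floor of 16), no detection filter, detection p under 0.01 on all 6 arrays, the brightest probe or mean per symbol, array weights, a variance fit with trend and robust options, a block for the replicate number and leaving out each array. Genes named were all members; of each list, up to 5 that passed and the brightest; and the 5 symbols most correlated with the member of largest change; other genes were named after their values were seen, and so were the 4 pairs of genes compared. The members and lists were chosen with earlier results of these data known. Promoter sequences and gene positions are RefSeq's, GRCm38.p6; the build behind the probe annotation is not stated.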

Additional observations from a re-analysis of the deposited data

How the results depend on the processing

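The directions of the 6 probes called lower were the same under every alternative run for them, and Hspb1 and Hspb6 also passed each time. The number of member probes called lower, 6, ran from 3 to 8 over the 17 alternatives. It was 3 with no detection filter, where more probes were tested and the standard errors changed as well. It was 7 with no background correction or an offset of 50, and 8 with median scaling. It was 3 to 6 when 1 array was left out and fewer samples entered, the lowest without replicate 2 of day 15.5 or replicate 3 of day 18.5. What moved these counts was not tested. The number called higher, 0, became 1 with a trended and robust variance (the brightest Hspa8 probe) and was 0 when any array was left out; the cause was not tested. Of the wider heat shock genes, 5 were higher with array weights and 8 lower with median scaling, where the cause of the former was not tested and the latter moved the median of all probes from 0.01 to -0.11 and the calls over all probes from 2401 higher and 2727 lower to 1698 and 4074. Leaving out 1 array gave 2 to 4 higher and 3 to 5 lower, the latter 3 without replicate 2 of day 15.5 or replicate 1 of day 18.5. Signs turned for 3 probes that had not passed, when 1 array was left out: Hspa2 ran from -0.18 to 0.0019 (the latter without replicate 3 of day 15.5), Hspb2 from -0.34 to 0.15 (without replicate 1 of day 18.5) and the dimmest Hspa1a probe from -0.35 to 0.017 (without replicate 1 of day 15.5).

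The labels do not say that the replicate numbers pair the arrays. Deviations from the day means correlated at -0.16, 0.14 and -0.07 between arrays of the same number. Between arrays of other numbers the correlations ran from -0.17 to 0.23. With 3 arrays per day such values cannot settle whether the numbers pair the arrays. With the number as a replicate block, 5 member probes were lower, Hspb7 having a log2 change of -0.92 and an adjusted p of 0.0537, and of the wider genes 3 were higher and 4 lower. Dim probes (Hspb2, the dimmest Hspa1a probe) lie near background, which limits the changes that can be seen there.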
